A study of Homo sapiens with 3 samples.

Results

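The genes described here supply the cell with cholesterol and fatty acids under the control of the sterol regulatory element binding proteins (SREBPs). They were chosen by name as a list of 29 genes: the SREBP genes and their regulators, the enzymes of the sterol branch with the sterol carrier STARD4, and the enzymes of the fatty acid branch. Of the 29 genes, 27 had at least 1 probe set annotated to that gene alone, 59 probe sets in all, and 26 passed the signal filter, out of 11917 genes that passed among 19775 measured. MVD, an enzyme late in the mevalonate pathway, was below the filter, both probe sets of CYP51A1 carry more than 1 gene name and were not used, and FDFT1 was not analysed here. The design set out to find mRNAs that miR-34a lowers through decay of the message and not only through blocked translation.

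All 3 arrays came from NCI-H1299, an established human lung cancer line grown in RPMI-1640 with 10% serum. Cells of the mock group are described only as mock, with neither RNA named for them. The other groups received miR-34a, a microRNA, or ghR-34a, an RNA the labels give by that name alone, each at 25 nM for 48 hours with Lipofectamine RNAiMAX. Each group is 1 array from 250 ng of total RNA, so there was no replicate spread, no test was possible, and the values below describe these arrays by size. Both transfectants are set against the same mock array, and a response to any transfected RNA cannot be told apart from one to these RNAs. RNA per cell and the number of cells cannot be told apart in bulk RNA either.

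SREBPs are made as membrane proteins of the endoplasmic reticulum. SCAP escorts them to the Golgi for cleavage when sterols are low, and INSIG1 and INSIG2 hold SCAP back when sterols are high. The released fragment enters the nucleus and activates genes of lipid synthesis; SREBF2 encodes the form best known for sterol genes, and SREBF1 the forms best known for fatty acid genes. SREBF2 and INSIG1 are themselves SREBP targets.

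The mature strand of human miR-34a is shown because its seed, bases 2 to 8 in capitals, pairs with target mRNAs. It lies at chr1:9151735-9151756 on the minus strand (RefSeq, GRCh38.p14), and hsa-miR-449a and hsa-miR-449b-5p in the same table share the seed. No untranslated region of a member was searched for it.

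hsa-miR-34a-5p: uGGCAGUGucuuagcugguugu

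Upstream sequence is shown for 5 members on which the results turn: SREBF2, HMGCS1 and DHCR7, which were lower in both transfectant arrays, and SCD and ACLY, the brightest fatty acid genes. Each run holds the 250 bases before the first listed RefSeq start (GRCh38.p14), 5′ to 3′ on the gene's strand. Capitals mark CACNCCA, the core of the sterol regulatory element, and CCAAT, the box bound by NF-Y, on either strand.

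SREBF2 chr22:41832855-41833104, plus strand: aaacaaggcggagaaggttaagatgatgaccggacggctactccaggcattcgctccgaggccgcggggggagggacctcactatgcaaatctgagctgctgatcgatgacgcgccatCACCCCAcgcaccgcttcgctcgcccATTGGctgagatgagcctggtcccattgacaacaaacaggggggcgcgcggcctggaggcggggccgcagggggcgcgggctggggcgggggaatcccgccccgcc

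HMGCS1 chr5:43313413-43313662, minus strand: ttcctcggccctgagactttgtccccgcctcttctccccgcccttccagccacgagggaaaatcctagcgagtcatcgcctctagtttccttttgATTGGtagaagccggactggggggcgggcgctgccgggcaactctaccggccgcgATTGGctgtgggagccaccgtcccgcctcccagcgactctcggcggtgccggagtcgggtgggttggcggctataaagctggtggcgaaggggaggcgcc

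DHCR7 chr11:71448394-71448643, minus strand: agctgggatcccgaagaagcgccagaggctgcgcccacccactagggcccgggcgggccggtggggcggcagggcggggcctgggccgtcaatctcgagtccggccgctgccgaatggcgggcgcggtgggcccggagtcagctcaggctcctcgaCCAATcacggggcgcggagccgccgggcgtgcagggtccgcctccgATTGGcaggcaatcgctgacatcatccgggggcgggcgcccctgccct

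SCD chr10:100346983-100347232, plus strand: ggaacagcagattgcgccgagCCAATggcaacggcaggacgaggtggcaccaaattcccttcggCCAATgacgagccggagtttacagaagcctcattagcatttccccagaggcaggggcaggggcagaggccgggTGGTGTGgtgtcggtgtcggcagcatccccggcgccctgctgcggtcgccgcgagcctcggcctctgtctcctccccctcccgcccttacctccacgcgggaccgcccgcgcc

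ACLY chr17:41919023-41919272, minus strand: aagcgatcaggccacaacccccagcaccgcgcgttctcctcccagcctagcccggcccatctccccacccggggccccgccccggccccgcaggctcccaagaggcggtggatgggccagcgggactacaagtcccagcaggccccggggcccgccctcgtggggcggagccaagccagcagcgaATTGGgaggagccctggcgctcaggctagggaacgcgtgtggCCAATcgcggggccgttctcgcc

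Of the 29 genes, 25 had such a window. CCAAT was found upstream of 19 of them (76%), against 37.0% of all 27305 genes with a window, and CACNCCA upstream of 11 (44%), against 17.4%. Counted by window, which sets equal lengths side by side, CCAAT was in 67.6% of the members' 34 windows and 32% of all 35116, and CACNCCA in 32.4% and 14.7%. The GC box GGGCGG was upstream of 24 members (96%, against 46.2% of all genes) and the palindromic E-box CACGTG of 3 (12%, against 7.73%), which were SCAP, INSIG1 and SC5D. By window these shares were 91.2% against 42.6% and 11.8% against 6.34%. Both strands were searched. All genes with a window were counted here, whether or not the arrays measured them or they passed the signal filter. The members may thus differ from that set in more than SREBP control, and no matched set was compared. The longer TCACNCCAC, which contains the CACNCCA core, was upstream of 1 member, SREBF2, and of 1.09% of all genes. In SREBF2 it lay at positions -133 to -125 from the start, with a reversed CCAAT box at -106 to -102. HMGCS1 and DHCR7 had 2 CCAAT boxes each in the windows shown and no CACNCCA. Neither CACNCCA nor CCAAT was found upstream of SREBF1, SCAP, INSIG2, PMVK, CYP51A1 and ELOVL6. TM7SF2, which was above mock in both arrays, had both motifs, as did SREBF2, which was below it. Whether the motifs go with the direction of change was not tested. These are matches of letters, not measured binding, and the motifs were chosen after several spellings had been counted.

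Signals below are linear, in the authors' scaling, and a difference is of log2(signal + 32), which understates changes of dim genes. Folds are ratios of signal + 32, so they are smaller than the ratios of the signals printed beside them. The size rule called a member lower or higher when this difference reached 0.5, which is 1.41-fold. Technical error was read from 42 spike-in control probe sets, whose differences from mock had an SD of 0.13 with miR-34a and 0.16 with ghR-34a. The 2 brightest probe sets of a gene differed by a median of 0.19 and 0.16 over 6026 genes in the same comparisons. Differences smaller than these were not told from 0, and the spread between cultures is unknown.

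More members lay below mock than above it with both RNAs, mostly by small amounts. With miR-34a, 17 of the 26 that passed the filter were below mock, against 44.8% of all genes that passed it (called all genes below), with a median of -0.12 (all genes, 0.038). With ghR-34a 18 of 26 were below mock, against 48.2% of all genes, with a median of -0.19 (all genes, 0.0096). By the size rule 4 members (15.4%) were lower with miR-34a, against 7.53% of all genes, and 2 (7.69%) higher, against 9.27%. For ghR-34a 3 members (11.5%) were lower, against 5.87% of all genes, and 0 higher, against 5.08%. No member reached 2-fold in either direction, which 1.14% of all genes did downward and 1.22% upward with miR-34a, and 0.571% and 0.453% with ghR-34a. For the higher calls the share of members was thus under that of all genes, and the excess of lower calls amounts to a few genes.

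Among the regulators, SREBF2 was low in both transfectant arrays. Its brightest probe set read 356 in mock, 238 with miR-34a and 213 with ghR-34a, on the signal + 32 scale 1.44-fold and 1.58-fold lower (log2 differences -0.52 and -0.66). Of all genes, 6.84% were as low or lower with miR-34a and 2.91% with ghR-34a. A second SREBF2 probe set went from 321 to 252 and 221. The third read 179 in mock and 177 with miR-34a, and 114 with ghR-34a. All 3 were thus lower with ghR-34a (-0.48 to -0.66). The miR-34a array gave them a range of -0.52 to -0.011, and their mean, -0.28, was short of the size rule.

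SREBF1 did not share this pattern. Its signal was 1621 in mock, 1971 with miR-34a and 1409 with ghR-34a, which puts it above mock with 1 RNA (0.28) and below with the other (-0.20). Its dim second probe set, at 100.3 in mock, was near 0 in both (-0.046 and 0.012). SCAP was at 734, 722 and 670 and differed by less than the technical error.

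The INSIG genes, paralogs that retain SCAP in the endoplasmic reticulum, differed from each other. INSIG1, a sensitive SREBP target, read 3270 in mock, 2852 with miR-34a and 2854 with ghR-34a, a difference near -0.20 in both. Its other probe sets were also below mock, at -0.43 and -0.044 with miR-34a and at -0.31 and -0.027 with ghR-34a. INSIG2 was higher, from 989 in mock to 1455 with miR-34a (1.46-fold as signal + 32, 0.54) and 1262 with ghR-34a (0.34). INSIG2 has 1 probe set, and with the arrays centred on their medians its miR-34a value was 0.48, under the size rule.

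In the mevalonate steps, which turn acetyl-CoA into isoprenoid units, HMGCS1 stood lowest of the genes that passed the filter. This HMG-CoA synthase read 1151 in mock, 789 with miR-34a and 769 with ghR-34a, 1.44-fold and 1.48-fold lower as signal + 32 (-0.53 and -0.56). Its second, dimmer probe set was lower too, from 192 to 167 and 131 (-0.17 and -0.46), and with averaged probe sets the miR-34a value was -0.35, short of the size rule. ACAT2, the cytosolic thiolase that makes acetoacetyl-CoA before it, went from 3293 to 2846 and 2575 (-0.21 and -0.35).

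The later mevalonate enzymes were closer to mock. The kinases MVK and PMVK were at -0.23 and -0.056 with miR-34a and at -0.12 and 0.046 with ghR-34a, and of 2 other MVK probe sets above the filter none shared its sign with miR-34a. FDPS, which makes farnesyl diphosphate, read 5965, 5592 and 5264 in mock, miR-34a and ghR-34a. IDI1, the isopentenyl diphosphate isomerase, read 4450 in mock, 4658 with miR-34a and 3602 with ghR-34a. All 4 IDI1 probe sets were below mock with ghR-34a (-0.12 to -0.30), whereas with miR-34a 2 were slightly above and 2 below (0.065 to -0.35). MVD read 95.3 in mock, 40.7 with miR-34a and 66.6 with ghR-34a (-0.81 and -0.37). Its mean over the arrays lay below the filter, so it was left out of the counts and medians.

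From squalene onward stood DHCR7, the reductase of the last step to cholesterol by one of the routes. Among members that passed the filter it was the lowest with miR-34a. It read 970 in mock, 597 with miR-34a and 645 with ghR-34a, 1.59-fold and 1.48-fold lower as signal + 32 (-0.67 and -0.56). Of all genes, 3.8% and 4.41% were as low or lower. The second DHCR7 probe set went from 671 to 394 and 453 (-0.72 and -0.54), so the 2 probe sets gave nearly the same values. Both are of the _s_at kind, which can read more than 1 transcript.

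SQLE, the squalene epoxidase that is a rate-controlling step, was slightly below mock. Its brightest probe set read 6513 in mock, 5737 with miR-34a and 5592 with ghR-34a (-0.18 and -0.22). All 4 SQLE probe sets were below mock in both arrays, between -0.14 and -0.26 with miR-34a and between -0.19 and -0.51 with ghR-34a. LSS, which closes the sterol ring, read 3242, 2964 and 2567 (-0.13 and -0.33), with 1 of its 2 other probe sets of opposite sign.

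TM7SF2 and NSDHL, also enzymes of these steps, lay above mock in both arrays. TM7SF2, a sterol reductase, read 348 in mock, 681 with miR-34a and 396 with ghR-34a. As signal + 32 it was 1.88-fold higher with miR-34a (0.91), a height reached by 1.63% of all genes, and at 0.17 with ghR-34a. It rests on 1 probe set of the _s_at kind, which can read more than 1 transcript. NSDHL, of sterol demethylation, read 861, 1205 and 1074 (0.47 and 0.31), and its second probe set was at 0.099 and 0.17. MSMO1, the methyl sterol oxidase of the same process, read 2769 in mock, 2457 with miR-34a and 3131 with ghR-34a (-0.17 and 0.18), to either side of mock.

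HSD17B7 (0.019 and -0.15) and the desaturase SC5D (0.10 and 0.059) were within the technical error. The isomerase EBP read 2489 in mock, 2111 with miR-34a and 2173 with ghR-34a (-0.23 and -0.19). The 4 EBP probe sets disagreed, from -0.41 to 0.66 with miR-34a. The 0.66 came from a dim probe set that read 48.3 in mock, below the filter level, and 95.2 with miR-34a. The others lay between -0.41 and 0.0027 with miR-34a, and all below mock with ghR-34a. STARD4, which carries sterol between membranes, went from 2208 to 2044 and 1814 (-0.11 and -0.28).

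**Figure D1:**
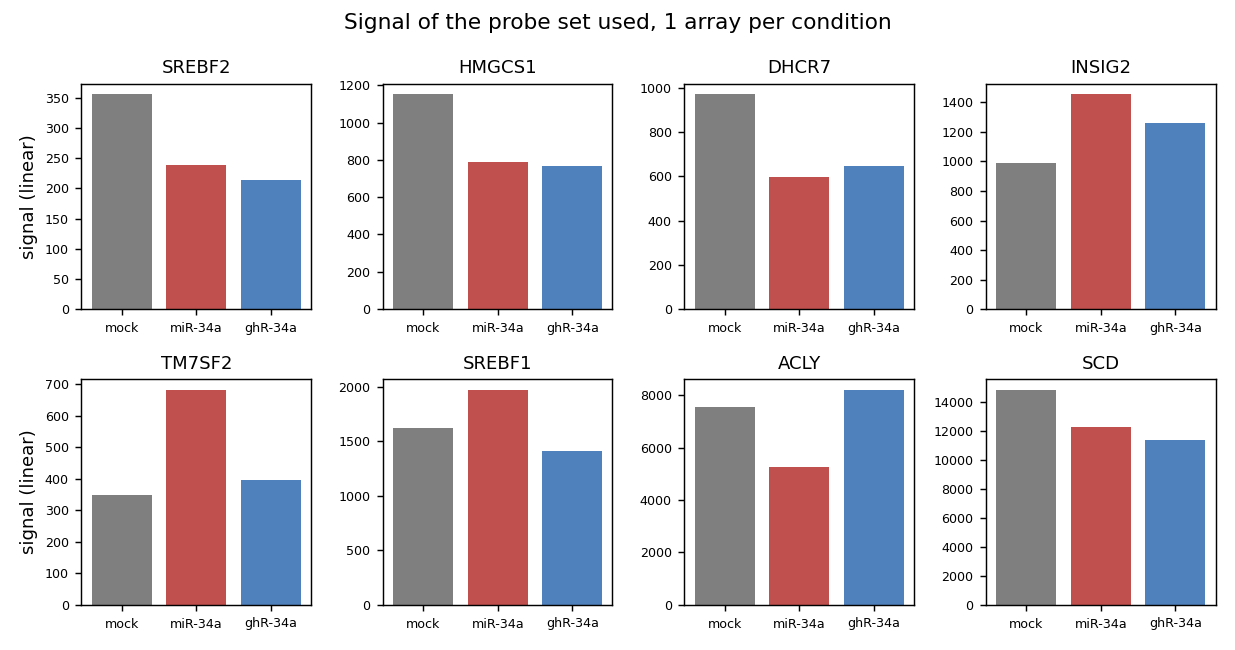
Linear signal (y axis, from 0) of the probe set used for 8 members in the mock, miR-34a and ghR-34a arrays, 1 bar per array and no error bars because each condition has 1 array. SREBF2, HMGCS1 and DHCR7 are lower than mock in both transfectants, INSIG2 is higher in both, TM7SF2 and SREBF1 are highest with miR-34a, and ACLY is lowest with miR-34a.

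In the fatty acid branch the RNAs gave different orders. ACLY, which cuts citrate into the cytosolic acetyl-CoA that feeds both branches, read 7564 in mock, 5251 with miR-34a and 8194 with ghR-34a. As signal + 32 it was 1.44-fold lower with miR-34a (-0.52) and at 0.11 with ghR-34a, and all 3 ACLY probe sets showed this, at -0.45 to -0.52 and at 0.11 to 0.28. Their signals were 1533, 1114 and 1727 for the second, and 1049, 754 and 1277 for the third, in mock, miR-34a and ghR-34a. With averaged probe sets the miR-34a value was -0.48, just short of the size rule. All 3 probe sets are of the _s_at kind.

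SCD, the desaturase that makes monounsaturated fatty acids, was below mock in both arrays and at all 4 probe sets, each of the _s_at or _x_at kind. The brightest read 14832 in mock, 12314 with miR-34a and 11372 with ghR-34a (-0.27 and -0.38). The others read 4446, 4222 and 2798, then 2497, 2139 and 1248, then 1452, 1161 and 1027. With ghR-34a the SCD probe sets lay between -0.38 and -0.98 and averaged -0.63, past the size rule, whereas with miR-34a they lay between -0.074 and -0.31. The probe set used for the gene, chosen for its signal, thus gave the smallest SCD difference of the 4 with ghR-34a.

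ACACA, the carboxylase that makes malonyl-CoA, read 2110, 2135 and 1887 (0.016 and -0.16). Its dimmer probe set read 217, 240 and 117, a difference of -0.74 with ghR-34a that the brighter one did not show. FASN, the fatty acid synthase, read 1888 in mock, 1550 with miR-34a and 1650 with ghR-34a (-0.28 and -0.19). Averaged with a second probe set below the filter, which read 84.5, 58.1 and 34.7, its ghR-34a value was -0.498, just short of the size rule. ELOVL6, which lengthens the product of FASN, read 1858, 2229 and 1869, so it was above mock with miR-34a (0.26, and 0.18 to 0.26 over 3 probe sets). With ghR-34a its probe sets ran from -0.28 to 0.16.

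**Figure D2:**
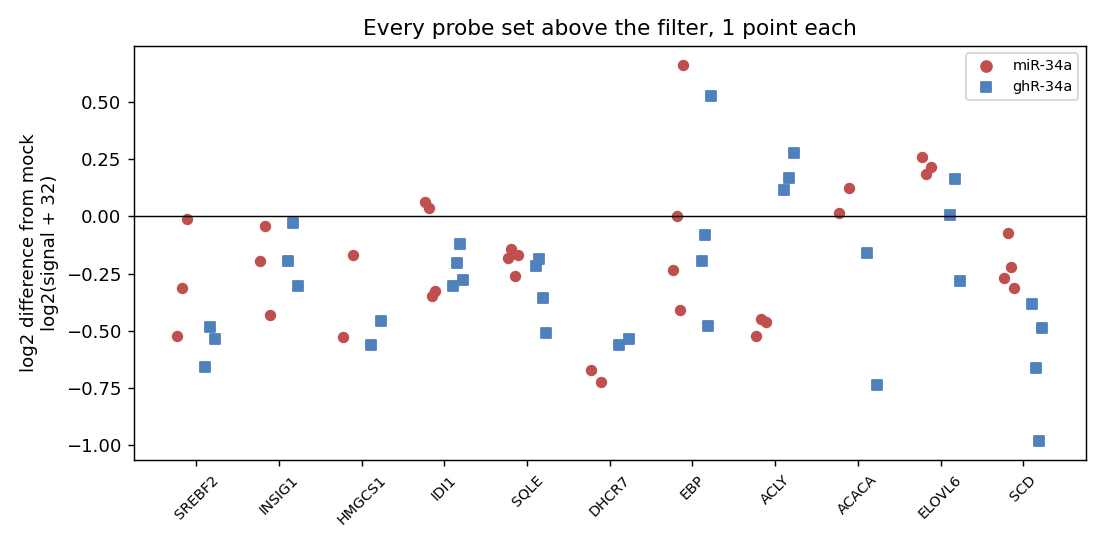
Log2 difference from mock (y axis) of every probe set above the filter for 11 members, miR-34a as circles and ghR-34a as squares, 1 array each. The points of DHCR7 and ACLY lie close together within each RNA. With ghR-34a those of SQLE spread from -0.19 to -0.51 and those of SCD from -0.38 to -0.98. Those of EBP lie on both sides of 0, the highest from a probe set that read only 48.3 in mock.

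Probe sets of a gene served as a check within each array. A second usable probe set existed for 15 members, of which 11 had the same sign in both with miR-34a and 13 with ghR-34a, against 70.3% and 66.8% of 6026 genes. All 4 such members past the size rule with miR-34a, and all 3 with ghR-34a, kept their sign in the second probe set. The same held for 749 of 875 such genes with miR-34a and 424 of 521 with ghR-34a over all genes, so these few members do not stand out.

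Set side by side, the sterol and fatty acid branches overlapped. With miR-34a the 15 sterol enzymes had a median of -0.13 and the 5 fatty acid enzymes -0.27, so the sterol median was 0.14 above. With ghR-34a the medians were -0.18 and -0.16, a gap of -0.020. In both comparisons 10 of 15 sterol enzymes (66.7%) and 3 of 5 fatty acid enzymes (60%) were below mock. Of all genes, 44.8% were below mock with miR-34a and 48.2% with ghR-34a, and 5 genes are too few to set apart from such shares. The gaps between the medians depended on the choice of probe sets. With averaged probe sets the fatty acid median with ghR-34a was -0.45 and the gap 0.30, and without _s_at and _x_at probe sets, which leaves ACACA and ELOVL6 alone, the gap with miR-34a turned to -0.31.

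Within the sterol branch, the 6 mevalonate enzymes that passed had medians of -0.15 and -0.24 with miR-34a and ghR-34a, with 5 of 6 below mock in each. The 9 enzymes from squalene onward had medians of -0.13 and -0.15, with 5 of 9 below mock. The latter ran from DHCR7 (-0.67) to TM7SF2 (0.91) with miR-34a. As shares, 83.3% of the mevalonate enzymes and 55.6% of those from squalene onward were below mock with each RNA. Of all genes, 44.8% were below mock with miR-34a and 48.2% with ghR-34a.

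Direct comparison of the transfectants at equal dose and time put 1 of 26 members past the size rule each way. These shares of 3.85% were near or under those of all genes, 3.38% upward and 5.1% downward, so the members do not stand out by count. The member past it upward was ACLY, as signal + 32 1.56-fold higher with ghR-34a than with miR-34a (0.64, and 0.62 to 0.74 over its probe sets). The member past it downward was TM7SF2, 1.67-fold lower on the same scale (-0.74). SREBF1 followed at -0.48, IDI1 at -0.37 and MSMO1 at 0.35. Averaged over probe sets, SREBF1 was at -0.21 and IDI1 at -0.084, and the 4 IDI1 probe sets split in sign (-0.37 to 0.23). At their brightest probe sets SREBF2, HMGCS1, DHCR7, INSIG1 and SQLE differed by -0.14 to 0.11 between the transfectants. Dimmer probe sets differed more, down to -0.52 for SREBF2, whose average was -0.28, -0.29 for HMGCS1 and -0.34 for SQLE. In all, 18 of 26 members were lower with ghR-34a than with miR-34a, against 55.6% of all genes, with a median of -0.11 (all genes, -0.031). With averaged probe sets ACACA, at -0.52, joined TM7SF2 past the size rule.

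Other genes of the pathway came from 5 lists of 56 genes. Of 46 that passed the filter, 17 (37.0%) were below mock with each RNA, against 44.8% of all genes with miR-34a and 48.2% with ghR-34a. Their medians were 0.13 and 0.051, against 0.038 and 0.0096 for all genes. By the size rule 6 (13.0%) were lower and 3 (6.52%) higher with miR-34a, against 7.53% and 9.27% of all genes. With ghR-34a 3 (6.52%) were lower and 2 (4.35%) higher, shares near the 5.87% and 5.08% of all genes. ERLIN1, an endoplasmic reticulum protein that takes part in sterol-sensitive degradation, read 3620 in mock, 1807 with miR-34a and 1901 with ghR-34a (-0.99 and -0.92). TMEM97, a sterol-responsive membrane protein, read 1835, 953 and 1252 (-0.92 and -0.54), and its 3 other probe sets were lower as well. Both were further from mock than any of the 26 members on the low side with miR-34a.

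ABCA1, the exporter of cellular cholesterol and a target of the sterol-sensing receptor LXR, was higher, at 444 in mock, 1206 with miR-34a and 728 with ghR-34a (1.38 and 0.67). Its second probe set was higher in both. LPCAT3, a phospholipid-remodelling LXR target, went the other way, at 634, 547 and 406 (-0.20 and -0.60), and the 8 genes of the list of LXR, sterol export and esterification had medians of 0.17 and -0.014. The desaturase FADS2 (0.40 and 0.62) and the carboxylase ACACB (0.75 and 0.043) had mock signals of only 68.6 and 69.7, near the filter.

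The arrays were checked against cell markers. The epithelial keratins KRT8 and KRT18 were bright in all 3 arrays, and the summed signal of 5 epithelial markers was 20064 in mock, 27440 with miR-34a and 23705 with ghR-34a, while KRT19, EPCAM and CDH1 were below the filter. Of 3 leukocyte markers 1 passed, of 7 fibroblast and endothelial markers 3, and of 5 alveolar and neuroendocrine markers 2, with summed signals of 86.0 to 147, 576 to 616 and 422 to 468. Of 5 hepatocyte and adipocyte markers none passed. The part of the keratin difference in the results above was not tested. GAPDH differed from mock by -0.022 and -0.11, and ACTB by 0.12 and 0.065.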

How the data were processed

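The authors deposited 1 table of linear intensity for 54675 probe sets on 3 arrays. Per the submitters' processing notes it came from Affymetrix Expression Console; its version and background correction are not given in the sources used here. On each array the 2% trimmed mean of the values the authors deposited is about 500.07, so they were scaled before deposit, and low signals depend most on the unknown background correction.

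From these, log2(signal + 32) was computed without further scaling. Of the probe sets, 62 controls were set aside, 41091 carried 1 gene symbol in the platform annotation, 1801 carried several and 11721 were unnamed here. All 27 members with such a probe set had the same symbol in RefSeq under their Entrez identifier. Each gene took its probe set with the highest mean, and was kept if that mean reached 68.6, the median over non-control probe sets. With 1 array per condition no test was run. Every member was to be named, as were, from the 5 other lists, the 2 genes that differed most each way in each comparison with mock. The members and lists were chosen with earlier results of these data known. Scripts were tested on simulated data with known changes. A log2 value was taken as moved by an alternative when it shifted by more than the spike-in SD. The alternatives were pseudocounts of 1 and 100, no filter, a filter at the 60th percentile, median centring, quantile normalization, averaged probe sets, no _s_at and _x_at probe sets, and a size rule of 1. Python 3.11.15, numpy 2.4.6, pandas 2.3.3 and matplotlib 3.10.9 were used. Promoter and microRNA sequences are from RefSeq (GRCh38.p14), and motifs, whose spellings were settled and promoters shown chosen after values and counts were seen, were searched in the 250 bases before each listed start.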

Additional observations from a re-analysis of the deposited data

How the results depend on the processing

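The median of the members stayed below 0 under every alternative run in all 3 comparisons, between -0.10 and -0.18 with miR-34a and between -0.15 and -0.19 with ghR-34a. Without _s_at and _x_at probe sets it rests on 17 members, 9 of them sterol enzymes. Between the transfectants it was -0.028 under median centring, and the sterol median turned to 0.040. The median of all genes turned likewise, from -0.031 to 0.049. The fatty acid branch has 5 genes and was less stable. Without _s_at and _x_at probe sets its median with miR-34a was 0.14, and the sterol minus fatty acid gap -0.31, with 2 fatty acid genes left. With averaged probe sets its median was -0.45 with ghR-34a and -0.26 between the transfectants, and the gap with ghR-34a was 0.30. The count of members lower with miR-34a was 2 with a pseudocount of 100, 1 with averaged probe sets and 2 without _s_at and _x_at probe sets. With no filter it was 5, MVD included. The count higher with miR-34a was 1 under median centring and 1 without those probe sets. Between the transfectants, averaged probe sets gave 2 lower members, and without those probe sets 0 were lower and 0 higher. At a size rule of 1 the counts of lower and higher members were 0 in all 3 comparisons, down from 3 lower with ghR-34a. No member past the size rule changed sign under an alternative that gave it a value. DHCR7 with both RNAs, SREBF2 and HMGCS1 with ghR-34a, TM7SF2 with miR-34a, and ACLY and TM7SF2 between the transfectants also stayed past it. DHCR7, ACLY and TM7SF2 had no value without _s_at and _x_at probe sets. Averaging all probe sets, those below the filter included, moved other members by more than the spike-in SD. With miR-34a SREBF1 was then at 0.12, MVK at -0.046, NSDHL at 0.28, EBP at 0.0062, IDI1 at -0.14 and SC5D at -0.27, the last 3 with a change of sign. With ghR-34a LSS was at -0.12, ACACA at -0.45, FASN at -0.498 and SCD at -0.63. Between the transfectants MVK (-0.10), SC5D (0.19) and FASN (-0.17) changed sign. Without _s_at and _x_at probe sets IDI1 was at -0.33 with miR-34a and 0.049 between the transfectants, a change of sign in each, and EBP at 0.0027 with miR-34a. Dim probe sets, such as that of MVD, had signals near the filter, and their differences depend most on background correction. No paired analysis was possible because each condition has 1 array.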
